A study of Rattus norvegicus with 8 samples.

Results

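Activins and transforming growth factor beta are secreted dimers that bring a type II and a type I receptor together at the cell surface, and the activated type I receptor then phosphorylates Smad proteins that enter the nucleus and change transcription. Follistatin binds activin outside the cell and keeps it from its receptors, and most transforming growth factor beta leaves the cell in a latent form that must be released. In the kidney these factors are known for their part in nephron development, in tubular repair and in fibrosis.

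The ligands, receptors and inhibitor described here were 10 rat genes: the ligand genes Inhba, Inhbb and Tgfb1, the inhibitor gene Fst, the type I receptor genes Acvr1, Acvr1b, Acvr1c and Tgfbr1, and the type II receptor genes Acvr2a and Acvr2b. They were matched to the array through the RefSeq accession of each probe, which gave 10 of the 14737 genes named in this way and 13 of the 30367 different probes that were not controls. Acvr1c, Acvr2b and Inhbb had 2 probes each, and the probe of highest mean signal over the 8 arrays leads the account of each gene. All 13 probes were well above background on 8 of 8 arrays. The genes were chosen by family, and the family was selected on the male-to-female difference of Acvr1c in these same arrays, so the values of Acvr1c are given as a description without a p.

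Total RNA came from kidney cortical slices of 4 male and 4 female adult RCCHanTMWIST rats, an outbred Wistar stock, without treatment, and the question put to the arrays was which genes differ between the sexes. Each rat gave 1 Cy3-labelled sample on 1 one-colour array. All 8 arrays lay on 1 slide in 2 rows, with both sexes in each row, and were read in 1 scan. The groups thus differ in sex alone as far as the labels say, and the age of the rats is given only as adult.

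Each value below is a log2 signal minus the log2 of the array's 75th percentile, so that 0 is the signal at that percentile, and a log2 fold-change is the male minus the female mean. The 75th percentile lay between 5025 and 6547 signal units, and 73.8% to 79.1% of the probes of an array exceeded background clearly. Over all 23425 probes tested the median log2 fold-change was -0.04, and a probe was called at an adjusted p below 0.05 with a fold-change of at least 1 on the log2 scale. Markers that define the cortex were present: all 9 listed markers of the proximal tubule were well above background, and their summed signal lay between 273 and 308 times the 75th percentile in the 8 rats. Slices hold many cell types, and fewer cells of a type and less RNA per cell cannot be told apart in them.

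Of the 10 genes, 1 was called, and it was Acvr1c, which was lower in the males with both of its probes. Of the 13 probes 2 were called, where the share over all tested probes was 1.89% (1.09% higher in females and 0.798% higher in males), and nothing is read from this count because Acvr1c was among the reasons for the choice. At an adjusted p below 0.05 without a fold threshold the same 2 probes passed, beside 8.06% of all tested probes (4.67% higher in females and 3.39% higher in males). The leading probes of 5 genes had a fold-change above 0 and those of 5 genes below 0, with a median of 0.06 over the 10 genes, while 41.6% of all tested probes were above 0. The sexes did not overlap at the leading probe in 3 of the 10 genes (Inhba, Acvr1 and Acvr1c) and at 5 of the 13 probes. These counts include Acvr1c with both of its probes, so nothing is read from them either. Over all tested probes the share without overlap was 18.5%, with 11.0% higher in females and 7.47% higher in males, and among the members Acvr1 alone was higher in males in this way.

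**Figure D1:**
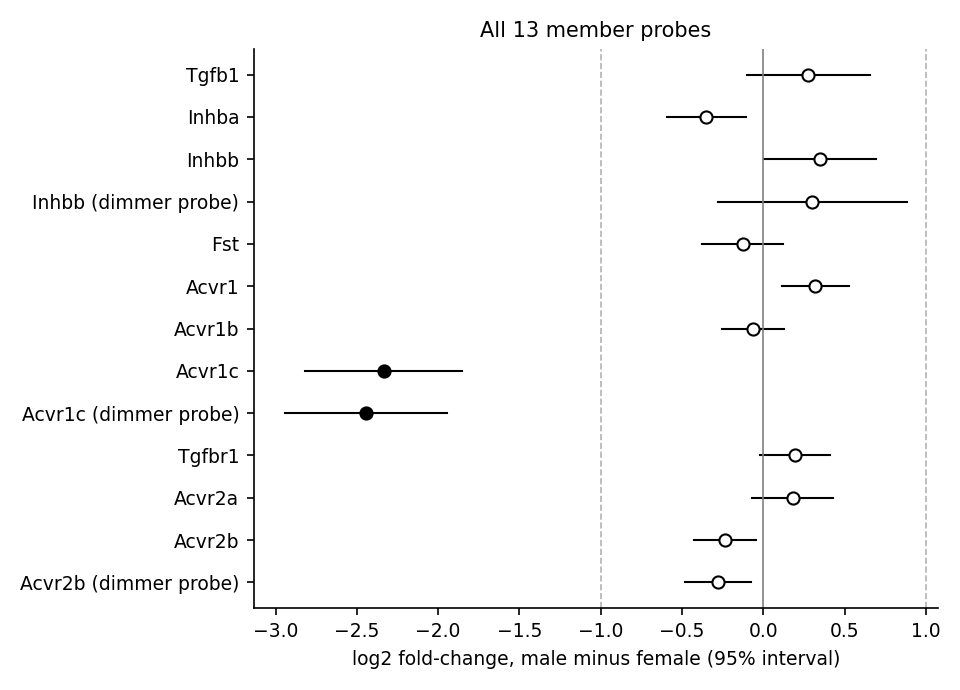
Log2 fold-change (male minus female) of the 13 probes of the 10 genes, with the 95% interval of the limma fit as a line; filled points were called, dashed lines mark a log2 fold-change of -1 and 1. Both Acvr1c probes lie below -2, and the other 11 probes lie between -0.35 and 0.35.

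Acvr1c encodes ALK7, a type I receptor that binds activin B, activin AB, Nodal and some growth and differentiation factors and signals through Smad2 and Smad3. The signal of its leading probe, A_64_P042249, before scaling was 2887, 2316, 2598 and 2338 units in females 1 to 4 and 944, 461, 496 and 477 units in males 1 to 4. On the scaled log2 axis these were -0.96, -1.12, -1.10 and -1.35 in the females and -2.80, -3.62, -3.69 and -3.76 in the males. The groups lay apart by more than 1 log2 unit, and male 1 was the highest of the males. The mean was -1.13 ± 0.16 in females and -3.47 ± 0.45 in males (SD, n = 4 each), a log2 fold-change of -2.33 (SE 0.21, 95% interval -2.82 to -1.85). Females thus held 5.04 times the signal of males, and 99.4% of all tested probes had a smaller absolute fold-change.

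The second Acvr1c probe, A_64_P065868, had the same highest and lowest rat. It read -3.95, -4.10, -4.11 and -4.21 in females 1 to 4 and -5.82, -6.72, -6.71 and -6.90 in males 1 to 4. Male 1 was again the highest male, and the lowest female stood well above it. The fold-change of this probe was -2.44 (SE 0.22), 0.11 away from that of the leading probe, although the leading probe was 7.89 times as bright. After each probe was centred on its own mean, the 2 probes never differed by more than 0.15 on any array. Spots of 1 probe on 1 array had an SD of 0.10 and 0.11 for these probes, where the SD between males was 0.45 and 0.49 and that between females 0.16 and 0.10. Both probes measure the same RNA samples and are no further replicates.

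**Figure D2:**
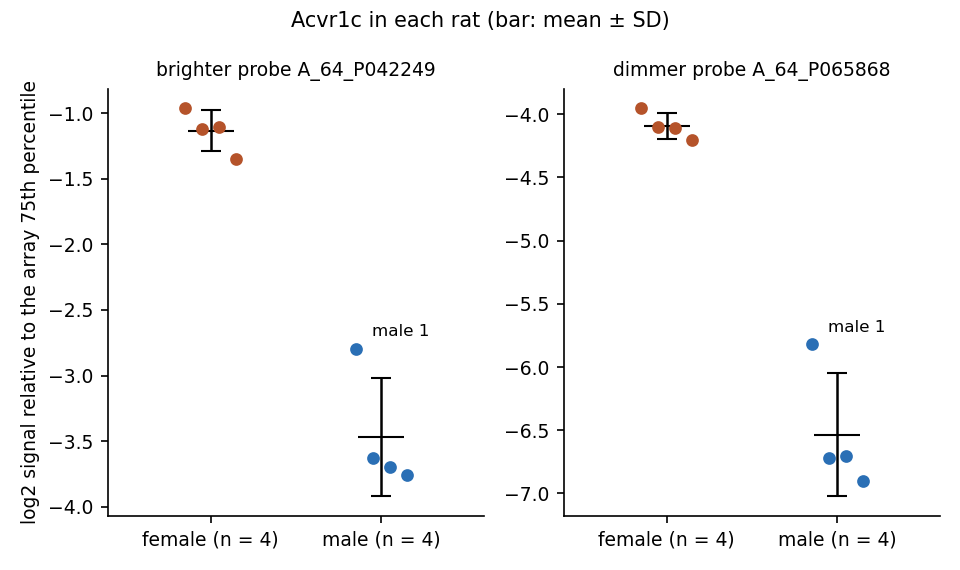
Log2 signal of Acvr1c relative to the array 75th percentile in each rat, for the brighter (left) and the dimmer probe (right); points are rats and bars are the mean ± SD of 4 rats per sex. The females sit between -1.35 and -0.96 at the brighter probe and the males between -3.76 and -2.80, with male 1 nearest to the females at both probes.

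Every female lay above every male at both Acvr1c probes, so the males had to be lower in both rows of the slide. Nothing is read from that direction, and the row values are given as a description. In row 1 the difference was -2.05 at the leading probe and in row 2 it was -2.62, each from 2 males and 2 females. The second probe gave -2.20 and -2.68. The row itself, tested beside sex with limma, passed an adjusted p below 0.05 at 0 of 23425 probes.

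The start of the Acvr1c gene is shown because this is the member whose level differed most between the sexes. The 152 bases before its outermost annotated start, from RefSeq on GRCr8, chr3:63301253-63301404 on the minus strand, are written 5′ to 3′ along the gene with the letters CCGCCC, the reverse complement of the GC box GGGCGG, in capitals.
Acvr1c: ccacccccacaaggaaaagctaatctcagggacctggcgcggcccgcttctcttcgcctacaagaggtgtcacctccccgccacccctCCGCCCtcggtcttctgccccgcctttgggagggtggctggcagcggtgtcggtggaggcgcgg
G and C made up 68.4% of these bases, which hold 12 CpG. In the RefSeq windows of 300 bases around a gene start the GC box, searched on both strands, was found for 5 of the 8 members with an entry (Acvr1b, Acvr1c, Acvr2b, Inhbb and Tgfbr1) and in 33.1% of 33469 windows. Acvr1 and Fst had no entry. The window of Acvr1c held 73.7% G and C and 31 CpG, where the medians of all windows were 51.7% and 7, and the other 7 members ranged from 45.7% in Inhba to 84.3% in Inhbb.

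Other short motifs were searched in the same windows, on both strands. The consensus of BCL6, a transcriptional repressor, was written as TTCCTAGAA or TTCCTCGAA and occurred in 0.442% of all windows and in 0 of the 8 members. CAGAC, letters that Smad proteins can bind, occurred in 50.1% of all windows and in 1 member, Inhba. TGTTCT, one arm of the androgen response element, occurred in 20.7% of all windows and in 1 member, Tgfb1. These matches are descriptions of letters in a window and of no measured binding. In the GRCr8 annotation Acvr1 is the neighbouring protein-coding gene of Acvr1c, and its fold-change pointed the other way, as given below with the type I receptors.

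Among the ligand genes, Inhba encodes the beta A subunit of activin A. Its probe, A_64_P030654, read -4.93, -4.99, -5.06 and -5.19 in females 1 to 4 and -5.20, -5.36, -5.64 and -5.37 in males 1 to 4. Every male lay below every female, but female 4 and male 1 were nearly level. The fold-change was -0.35 (SE 0.11, 95% interval -0.59 to -0.11) with an adjusted p of 0.0824 in limma. The two-sided exact permutation p, not adjusted over probes, was 0.0286, the smallest that 4 against 4 rats allow. A probe whose 4 males and 4 females do not overlap reaches it, and 18.5% of all tested probes had no overlap. After quantile normalization the fold-change was -0.25 (adjusted p 0.135 in limma), and after normexp with quantile normalization -0.18 (0.185). It was -0.16 in row 1 of the slide and -0.54 in row 2.

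Inhbb encodes the beta B subunit of activin B. The leading probe, A_64_P030644, read -2.62, -2.35, -2.87 and -2.81 in females 1 to 4 and -2.38, -1.97, -2.42 and -2.48 in males 1 to 4. Male 2 was the highest rat and female 2 reached above 3 of the 4 males, so that the sexes overlapped. The fold-change was 0.35 (SE 0.15, 95% interval 0.00 to 0.69), with an adjusted p of 0.191 in limma and an exact permutation p of 0.114. The second probe, A_44_P576822, gave 0.30 (SE 0.25, adjusted p 0.506 in limma). Its ranges were -4.81 to -4.00 in females and -4.53 to -3.47 in males, and the 2 Inhbb probes, each centred on its mean, differed by up to 0.74 on an array, the widest disagreement among the genes with 2 probes.

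Tgfb1 encodes transforming growth factor beta 1, a ligand known for promoting fibrosis. It was printed as 10 spots on each array, and spots of 1 array had an SD of 0.07. The probe A_42_P522899 read -4.70, -4.76, -4.33 and -4.23 in females 1 to 4 and -4.53, -4.02, -4.00 and -4.35 in males 1 to 4. The sexes overlapped broadly, with a fold-change of 0.28 (SE 0.17, 95% interval -0.10 to 0.66) and an adjusted p of 0.336 in limma. The difference was -0.16 in row 1 of the slide and 0.72 in row 2.

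Fst encodes follistatin, the activin-binding inhibitor. The probe A_64_P154605 read -4.87, -4.77, -5.19 and -4.91 in females 1 to 4 and -4.98, -5.15, -5.19 and -4.94 in males 1 to 4. Female 3 and male 3 were level as the lowest of their sex, and the fold-change of -0.13 (SE 0.11, 95% interval -0.37 to 0.12, adjusted p 0.508 in limma) was smaller than the range within either sex. It was 0.09 in row 1 and -0.35 in row 2.

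The other type I receptors did not share the difference of Acvr1c in size. Acvr1 encodes ALK2, which signals mainly for bone morphogenetic proteins and can bind activin A. Its probe, A_64_P136382, read -5.26, -5.35, -5.11 and -5.20 in females 1 to 4 and -4.80, -4.96, -4.79 and -5.07 in males 1 to 4. Every male lay above every female, and female 3 and male 4 were nearly level. The fold-change was 0.32 (SE 0.09, 95% interval 0.11 to 0.53), with an adjusted p of 0.0674 in limma. The unadjusted exact permutation p was 0.0286, which, as for Inhba, any probe without overlap reaches. After quantile normalization it was 0.41 with an adjusted p of 0.0357 in limma. The log2 values deposited by the authors, themselves quantile normalized, also gave 0.41 with 0.0357. These were the only 2 of 21 alternative settings in which Acvr1 passed an adjusted p below 0.05. After normexp background correction the fold-change was 0.24 (adjusted p 0.118 in limma), and without female 2 it was 0.28 (0.156).

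Acvr1b encodes ALK4, the main type I receptor of activin A. The probe A_64_P148873 read -5.75, -5.73, -5.87 and -5.84 in females 1 to 4 and -5.94, -5.67, -5.89 and -5.94 in males 1 to 4. Male 2 was the highest of all rats, and the other males lay below every female. The fold-change was -0.06 (SE 0.08, 95% interval -0.25 to 0.13, adjusted p 0.685 in limma), and it turned to 0.0453 after quantile normalization.

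Tgfbr1 encodes ALK5, the type I receptor of transforming growth factor beta. The probe A_64_P045651 read -0.05, -0.12, 0.11 and 0.08 in females 1 to 4 and 0.25, 0.02, 0.36 and 0.18 in males 1 to 4. Male 2 lay within the female range and the other males lay above it. The fold-change was 0.20 (SE 0.09, 95% interval -0.02 to 0.41), with an adjusted p of 0.232 in limma and an exact permutation p of 0.0857.

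The type II receptor genes moved little. Acvr2a and Acvr2b encode the receptors that bind activins first and then recruit a type I receptor. Acvr2a, probe A_44_P447560, read -4.76, -4.97, -4.86 and -4.92 in females 1 to 4 and -4.82, -4.90, -4.45 and -4.61 in males 1 to 4. Males 3 and 4 stood above all females while males 1 and 2 lay among them, and the fold-change was 0.18 (SE 0.11, 95% interval -0.07 to 0.43, adjusted p 0.346 in limma). Acvr2b, leading probe A_64_P225608, read -1.16, -1.25, -1.43 and -1.24 in females 1 to 4 and -1.44, -1.62, -1.55 and -1.42 in males 1 to 4. Female 3 lay within the male range and the other females lay above it. The fold-change was -0.23 (SE 0.08, 95% interval -0.42 to -0.05, adjusted p 0.120 in limma, exact permutation p 0.0571). Its second probe, A_43_P15824, gave -0.28 (SE 0.09, adjusted p 0.0993 in limma), and there every male lay below every female.

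**Figure D3:**
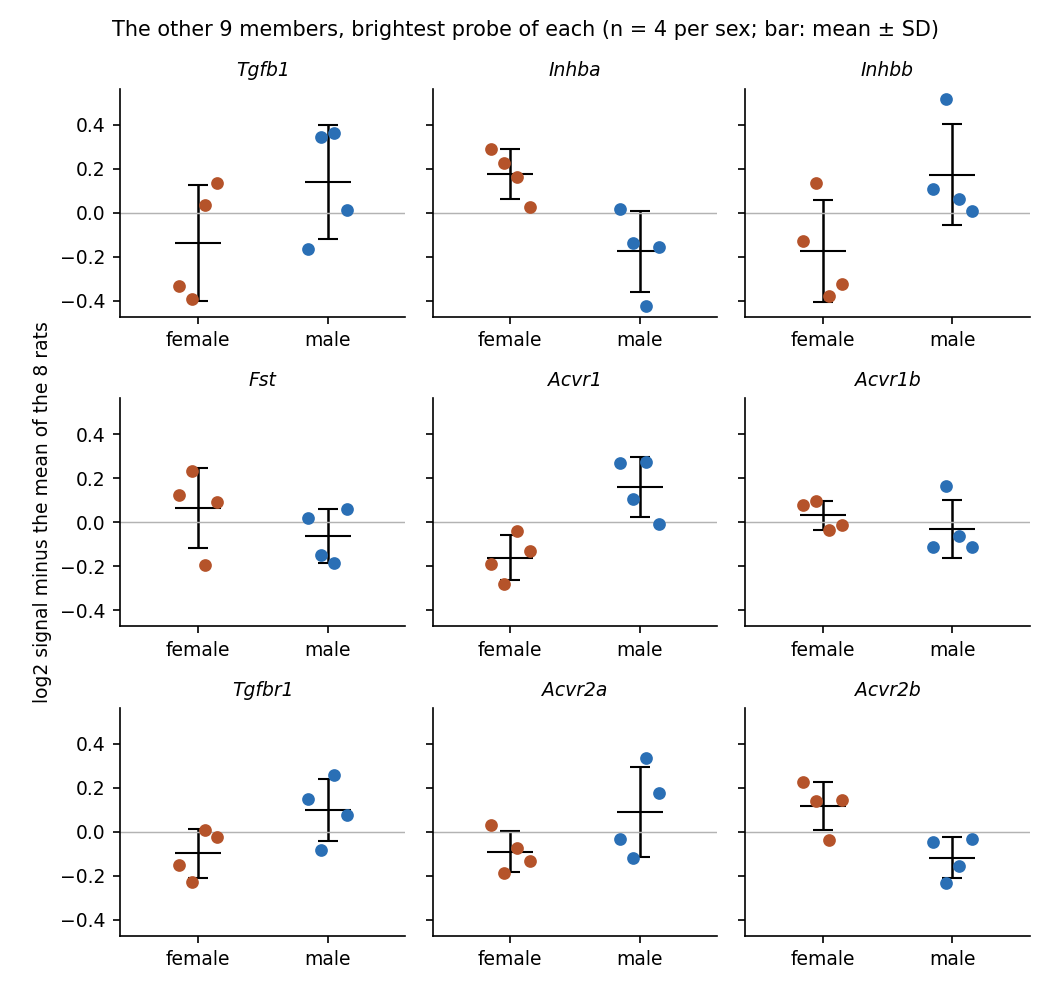
Log2 signal of the leading probe of the other 9 genes in each rat, minus the mean of the 8 rats; points are rats, bars are the mean ± SD of 4 rats per sex, and the vertical axis is shared. Inhba and Acvr1 are the 2 of these genes in which the sexes do not overlap, with fold-changes of -0.35 and 0.32.

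The 95% intervals bound how large a difference these 4 against 4 rats leave room for. At the leading probes of the other 9 genes the interval reached furthest from 0 at 0.69 for Inhbb and at 0.66 for Tgfb1, so that none of these intervals reached the log2 fold-change of 1 that a call asked for. At the second Inhbb probe it was wider, as drawn in the plot of the 13 probes.

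The genes whose pattern over the 8 rats was most like that of Acvr1c were found among 13147 named probes, of 11141 genes, that were well above background on all arrays. The measure was the root-mean-square difference of the log2 values after each probe was centred on its mean, in which a smaller value is more alike. Oacyl was nearest at 0.26, followed by Ugt1a9 at 0.28, Pkd2l2 at 0.33, Slc22a24 at 0.34 and Cgref1 at 0.35. Ugt1a9 encodes a glucuronosyltransferase and shares exons with the other genes of its locus, so that its probe may read those as well, and Slc22a24 belongs to the organic anion transporter family.

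All 5 were lower in the males, as the measure asks, with fold-changes of -2.51 for Oacyl, -2.02 for Ugt1a9, -2.26 for Pkd2l2, -2.34 for Slc22a24 and -1.86 for Cgref1. Oacyl read -2.65, -2.82, -2.43 and -3.24 in females 1 to 4 and -4.58, -5.90, -5.42 and -5.28 in males 1 to 4. Male 1 was the highest male in each of these 5 genes, which the choice by likeness to Acvr1c also favours. Slc22a24 read 2.46, 2.79, 2.27 and 1.46 in females 1 to 4 and 0.17, -0.28, 0.08 and -0.35 in males 1 to 4.

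Other genes of the pathway were taken from 6 lists of 77 genes, of which 68 had a probe and 59 could be tested. At the brightest tested probe 4 of the 59 genes passed an adjusted p below 0.05, 1 higher in males and 3 higher in females, beside 8.06% of all tested probes. Of the 69 tested probes 1 was called, beside 1.89% of all. The fold-change was above 0 in 23 genes and below 0 in 36, with a median of -0.07, beside 41.6% of all tested probes above 0. The sexes did not overlap in 12 of the 59 genes, beside 18.5% of all tested probes.

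Gdf15, a distant member of the ligand family that rises with cell stress and acts through a receptor outside the family, was the called gene. The probe A_64_P011489 read -4.80, -4.17, -4.68 and -3.96 in females 1 to 4 and -3.22, -3.16, -3.52 and -3.29 in males 1 to 4. All males lay above all females, with a fold-change of 1.11 (SE 0.19, adjusted p 0.0122 in limma). Without females 1 and 2 it was 1.02 with an adjusted p of 0.0746, without female 1 it was 0.98 with 0.0268, and after normexp background correction it was 0.99 with 0.00804, so that the call was lost in each of these.

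The 3 genes higher in females were Fstl1, Sostdc1 and Bmpr1b. Fstl1, a secreted follistatin-like protein, gave -0.37 (SE 0.08, adjusted p 0.0260 in limma), and its second probe gave -0.43 (adjusted p 0.0595). Sostdc1, an inhibitor of bone morphogenetic proteins and of Wnt signalling in the kidney tubule, gave -0.42 (adjusted p 0.0373), and Bmpr1b, a type I receptor of bone morphogenetic proteins, gave -0.43 (adjusted p 0.0487). These calls at the adjusted p alone were made in 10, 7 and 5 of 21 alternative settings, in that order.

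Tgfb2, a ligand that needs the co-receptor Tgfbr3 for strong binding, differed between its probes. Its brighter probe, A_43_P12532, read -3.28, -3.76, -3.11 and -4.96 in females 1 to 4 and -5.68, -4.94, -5.15 and -4.31 in males 1 to 4. Female 4 lay among the males and male 4 was nearest to the females. The fold-change was -1.24 (SE 0.43, adjusted p 0.118 in limma), it was -1.64 with an adjusted p of 0.0256 without female 4, and the second probe gave -0.20 with an adjusted p of 0.440.

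Further ligand and receptor genes did not pass the test. Tgfb3 gave -0.28 and Inha, the inhibin alpha subunit, also -0.28, with adjusted p of 0.227 and 0.377 in limma. Tgfbr2, the type II receptor of transforming growth factor beta, gave -0.16 (adjusted p 0.360). The endothelial receptor genes Eng and Acvrl1 gave -0.05 and 0.00, the co-receptor Tgfbr3 gave 0.01 and the decoy receptor Bambi gave -0.00, where the sign of Tgfbr3 and Bambi turned after normexp background correction. Fstl3, a second activin-binding inhibitor, gave -0.24 (adjusted p 0.118).

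Within the cell, Smad4, the common partner of the receptor-regulated Smads, gave 0.34 (adjusted p 0.0674 in limma) and the inhibitory Smad7 gave 0.27 (adjusted p 0.0843). Smad7 read 0.42, 0.35, 0.59 and 0.53 in females 1 to 4 and 0.71, 0.87, 0.71 and 0.66 in males 1 to 4. In both genes every male lay above every female, and neither passed the test. Smad2 gave -0.01 and Smad6 gave -0.02, values whose sign turned after quantile normalization, and the probe of Smad3 was well above background on 0 of 8 arrays and was not tested. Ccn2, a target gene that encodes a matricellular protein, gave 0.14 (adjusted p 0.720).

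**Figure D4:**
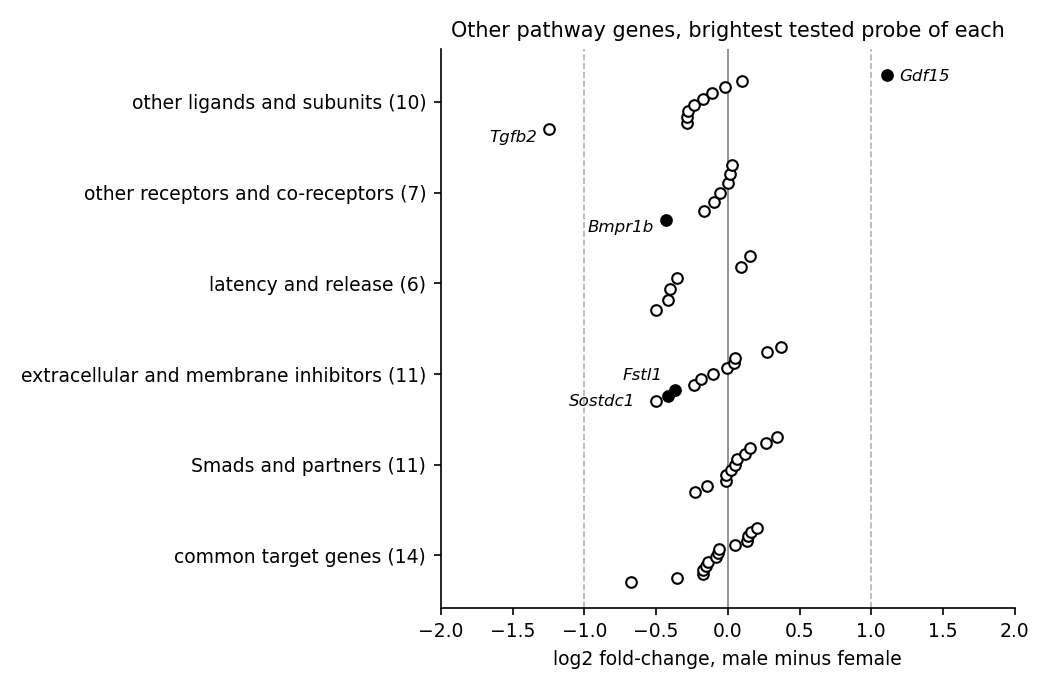
Log2 fold-change (male minus female) of 59 other pathway genes at the brightest tested probe, in the 6 lists with the number tested in brackets; filled points had an adjusted p below 0.05 and dashed lines mark -1 and 1. Gdf15 at 1.11 and Tgfb2 at -1.24 lie beyond the dashed lines, and the filled points below 0 are Bmpr1b, Sostdc1 and Fstl1.

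Acvr1c is known to be abundant in fat cells, and adipose tissue lies close to the renal cortex, so adipocyte markers were read in the same rats. Of 8 listed markers 7 had a probe and could be tested, 5 were lower and 2 higher in males by their means, and 0 passed an adjusted p below 0.05 in limma, while 2 had an unadjusted p below 0.05. Retn gave -1.92 (adjusted p 0.180), Cfd -1.54 (0.193), Fabp4 -1.52 (0.515), Adipoq -0.41 (0.277) and Lep -0.30 (0.342). Cidec and Lipe went the other way, at 0.18 (0.828) and 0.22 (0.592). The summed signal of the 7 markers was taken in multiples of the 75th percentile. It was 1.17, 0.699, 0.403 and 0.471 in females 1 to 4 and 0.398, 0.383, 0.397 and 0.543 in males 1 to 4. In this sum females 1 and 2 were high, and females 3 and 4 lay within the range of the males. The sum follows mostly Adipoq, the brightest of the 7, and single markers departed from it. Female 3 lay above all males at Retn, and female 4 lay above all males at Cfd and Lep. At Cidec female 4 lay below all males.

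For Acvr1c, females 3 and 4 read -1.10 and -1.35, and the males -3.76 to -2.80. Without females 1 and 2, a setting chosen after these values were seen, the fold-change of Acvr1c was -2.24. That setting does not make the sexes equal in adipocyte markers, as the values of Retn, Cfd and Lep above show. Nothing is read from it, and a part of adipocytes in the difference was not tested. Other markers were read in the same way. The podocyte sum was 12.2 to 13.0 in females and 10.5 to 11.0 in males, and the sum of the thick ascending limb was 59.6 to 68.4 and 50.8 to 57.6, both without overlap. The proximal tubule sum was 280 to 308 in females and 273 to 297 in males, and that of the collecting duct was 51.1 to 65.9 and 43.6 to 54.9. At the leading probe the adjusted p in limma was below 0.05 for 1 gene of each of these 4 lists, all lower in males: Podxl of the podocyte (-0.27), Cldn16 of the thick ascending limb (-0.62), Cubn of the proximal tubule (-0.59) and Atp6v0d2 of the collecting duct (-0.42). Umod, also of the thick ascending limb, gave -0.26 (adjusted p 0.0880). Gatm of the proximal tubule was higher in males, at 0.33 (adjusted p 0.0706 in limma) at its leading probe. Its second probe gave 0.47 with an adjusted p of 0.0238. By their means, 4 of 9 proximal tubule genes were higher in males. So was 1 gene each of the podocyte, thick ascending limb and collecting duct lists. The leukocyte and macrophage sum was 16.2 to 24.2 in females and 20.2 to 25.5 in males. All 5 genes of that list had the higher mean in males, and 0 passed an adjusted p below 0.05 in limma. The sums for distal convoluted tubule, endothelium, fibroblast and pericyte, blood and adrenal cortex overlapped between the sexes. In those lists too, 0 genes passed at the leading probe. The part of these cell types in the result was not tested.

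**Figure D5:**
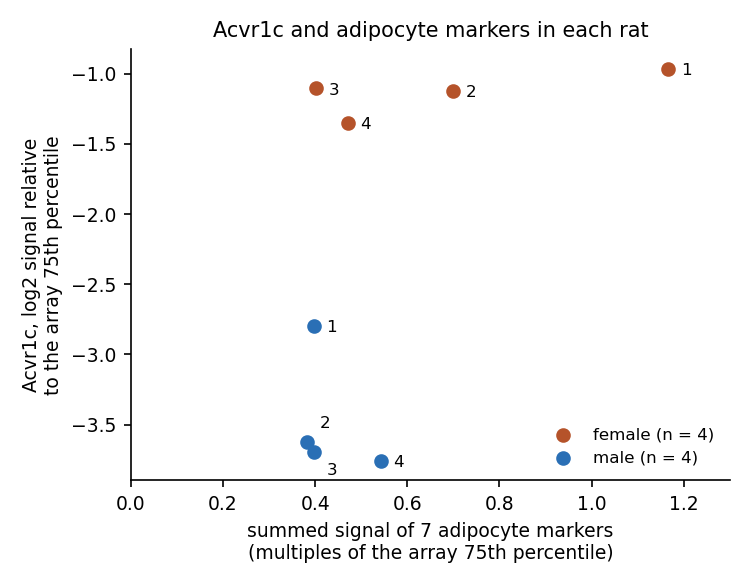
Log2 signal of Acvr1c at its brighter probe (vertical axis, relative to the array 75th percentile) against the summed signal of 7 adipocyte markers (horizontal axis, multiples of that percentile) in each rat, numbered as in the text. Females 3 and 4, at 0.403 and 0.471, lie within the male range of the horizontal axis of 0.383 to 0.543 and above all males on the vertical axis.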

How the data were processed

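RNA of the cortical slices of each rat was measured on 1 array. The authors deposited the signal intensity of every spot from Agilent Feature Extraction 10.7.3.1, with the background subtracted and no scaling between arrays. A table of log2 values deposited by the authors holds these signals after quantile normalization and served as an alternative. The submitters' processing notes name limma 3.8.2.

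Sex and number of each rat were taken from the labels. Spots marked as outliers were dropped, the 75th percentile of the array was subtracted from log2 of the signal, and a probe was the mean of its spots. A probe entered the fit where it was well above background on 4 or more of the 8 arrays (23425 of 30367), 25 probes with a missing array included. The fit was male minus female with limma 3.58.1 in R 4.3.3 (lmFit, eBayes), without covariates, with Benjamini-Hochberg adjustment over all probes fitted. Single leading probes also had a two-sided exact permutation test over 70 assignments, whose p was not adjusted over probes. The fit was tested on simulated data. The number of arrays limits the precision.

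The members, the pathway and marker lists and the tests were chosen with earlier results of these data known. The text names all 10 members, a fixed set of pathway genes, any pathway gene with an adjusted p below 0.05, the 5 genes most like Acvr1c, and markers where their list is given. A single gene of the fixed pathway set is not reported here. RefSeq accessions named 17514 of the 30367 probes. Promoter sequences are from RefSeq, GRCr8. The alternatives were quantile normalization, the deposited log2 values, normexp on median spot signals (offset 16) with or without quantile normalization, no filter on dim probes or one on all 8 arrays, keeping outlier spots, array weights, a robust prior with intensity trend, blocks of replicate number, slide row or slide column pair, and leaving out each rat.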

Additional observations from a re-analysis of the deposited data

Results flagged for a closer look

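In Acvr1c, male 1 stood apart from the other males at the leading probe: it read -2.80, while the others lay between -3.76 and -3.62, and the gap to the nearest was 0.862 of the range of the 4 males. In Bambi, male 2 stood apart at 1.55, while the other males lay between 1.41 and 1.42, with a gap of 0.902 of the range. Of 64 groups of 4 rats examined on 32 probes, 2 were set apart in this way, and chance alone sets apart about 1 in 20, or 3.2 groups.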

How the results depend on the processing

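The fold-change of Acvr1c at its leading probe lay between -2.56 and -2.19 over the alternatives, and between -2.56 and -2.24 when 1 rat was left out. The number of member probes called was 2 throughout, from which nothing is read, since both were of Acvr1c, on which the family was selected. With Acvr1, 3 passed the adjusted p alone after quantile normalization and in the deposited log2 values. Acvr1b turned to 0.0453 after quantile normalization, 0.0365 in the deposited log2 values and 0.0252 after normexp with quantile normalization. No other member changed sign at its leading probe. Pathway probes called (1) fell to 0 after normexp and without females 1 and 2 (chosen after the data were seen) and ranged from 0 to 2 when 1 rat was left out, 0 without female 1 and 2 without female 4. Pathway probes with an adjusted p below 0.05 (4) were 2 after quantile normalization, 2 in the deposited log2 values, 1 without the filter, 0 without females 1 and 2, and 1 to 4 when 1 rat was left out, with 1 without female 2, male 2 or male 3 and 2 without female 3 or male 1. Over all probes, 1889 passed the adjusted p alone, of which 795 were higher in males, against 1194 without the filter, 1030 with the replicate block, 1012 to 1544 when 1 rat was left out and 509 without females 1 and 2. After quantile normalization 1078 were higher in males and 901 in females. Scalings moved the median fold-change by less than 0.1.

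The deviations of rats of the same number correlated weakly, at 0.125, 0.0427, -0.00794 and 0.117 for numbers 1 to 4. The male of the same number was the best match for females 1 and 4, and another male was for females 2 and 3. So few correlations cannot decide whether the number pairs rats. With the replicate number as a block Acvr1c kept -2.33 (SE 0.14), 2 member probes were called and 1 pathway probe passed the adjusted p.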
